A study of Rattus norvegicus with 16 samples.

Results

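The genes described here carry out the unfolded protein response, which answers misfolded protein in the endoplasmic reticulum (ER), and the integrated stress response, which slows protein synthesis and raises the transcription factor Atf4. They were chosen by symbol for these roles: ER chaperones, stress sensors, enzymes of ER-associated degradation, and targets of Atf4 and Ddit3. Of 38 listed genes, 36 had a probe set and 2, the sensor Ern1 and the degradation gene Derl3, had none on this array's annotation, against 14217 genes measured in all. Each gene is read from 1 probe set, the one with the highest mean over the 16 arrays.

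RNA came from cultured primary pancreatic islets of male Wistar rats aged 8 weeks, kept in RPMI medium with 10% fetal bovine serum and 8 mM glucose. Islets were left untreated (n = 5 arrays), received a control adenovirus that encodes the bacterial enzyme β-galactosidase (Adβgal, n = 6), or received one that encodes the beta cell transcription factor Nkx6.1 (AdNkx6.1, n = 5). Virus was in the medium for 18 h, and islets were harvested 48 h after it was added. Sample titles speak of biological replicates without saying whether they came from separate rats, the treatment protocol speaks of 5 replicates per condition where the table has 6 Adβgal arrays, and the labels give neither the share of cells that took up virus nor the cell types reached. The series title ties Nkx6.1 to beta cell proliferation through Nr4a1 and Nr4a3. The comparisons below ask whether the control virus, or the Nkx6.1 virus beyond it, moved the ER stress genes.

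Beta cells make and fold very large amounts of proinsulin, so ER folding capacity is a standing demand in islets. Ern1, Eif2ak3 and Atf6 sense unfolded protein in the ER: Ern1 splices the messenger of Xbp1, Eif2ak3 (PERK) phosphorylates the initiation factor eIF2, and Atf6 is cut to release a transcription factor. Phosphorylated eIF2 favours translation of Atf4, which with Ddit3 (CHOP) drives genes of amino acid supply, recovery of translation and cell death. Because Xbp1 and Atf4 are controlled in large part by splicing and translation, and because these arrays measured neither, a messenger level does not show how active either factor was.

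Part of this programme can be read from promoter sequence. RefSeq promoters on the GRCr8 build, running from 250 bases before to 50 bases after each gene's start, were given for 29 of the 36 genes. The ER stress element (CCAAT, 9 bases, CCACG, either strand) was found in 8 of these 29 (27.6%), namely Hspa5, Hsp90b1, Calr, Canx, Creld2, Dnajc3, Ero1b and Xbp1, and in 22 of all 33469 promoters (0.0657%). Its second form (ATTGG, 1 base, CCACG) was in Herpud1, Hyou1 and Dnajb11, and in 0.0508% of all promoters. The UPR element (TGACGTGG) was in Hyou1 alone among these genes, where it overlaps the second form, and in 0.595% of all promoters. The shorter C/EBP-ATF response element (TGATG, 1 base, AA), a binding sequence of Atf4, was in Chac1, Trib3, Nupr1 and Herpud1 (13.8% of the 29) and in 3.98% of all promoters. These are matches of letters and not measured binding. The genes were listed for their known place in this response, so the shares describe the list.

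The following stretches show the element in Hspa5 and Creld2, which did not pass the threshold used below, in Xbp1 and Ero1b, which did, and the second form and the Atf4-type element in genes of the stress response arm. Capitals mark the element, and in Ero1b, Creld2, Chac1, Trib3 and Nupr1 it lies on the opposite strand.
Hspa5, chr3:38452958-38453006, plus strand: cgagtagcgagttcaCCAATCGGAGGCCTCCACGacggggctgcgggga
Xbp1, chr14:84604543-84604591, plus strand: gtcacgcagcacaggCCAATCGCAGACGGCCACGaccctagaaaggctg
Ero1b, chr17:92941443-92941491, plus strand: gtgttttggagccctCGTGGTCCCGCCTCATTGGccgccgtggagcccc
Creld2, chr7:121789224-121789272, plus strand: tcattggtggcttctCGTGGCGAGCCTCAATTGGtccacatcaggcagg
Herpud1, chr19:10614806-10614846, minus strand: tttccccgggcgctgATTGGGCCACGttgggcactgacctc
Chac1, chr3:126795949-126795986, plus strand: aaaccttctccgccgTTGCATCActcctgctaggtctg
Trib3, chr3:161275534-161275569, minus strand: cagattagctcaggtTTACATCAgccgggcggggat
Nupr1, chr1:190645934-190645971, minus strand: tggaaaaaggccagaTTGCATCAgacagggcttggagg

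Values are log2 of the deposited intensity, as single arrays or as mean ± SD, and a change is the mean of the group named first less that of the other, with its standard error (SE) from limma. A gene is said to have risen or fallen where its p, adjusted by Benjamini-Hochberg over all 14217 genes, was under 0.05. The arrays' median intensities ran from 264.9 to 296.4. The islet label holds by the hormone markers, with untreated means of 14.82 ± 0.08 for Ins2 and 14.75 ± 0.10 for Ins1. The probe set of Nkx6-1 read 11.90 ± 0.19 with Adβgal and 11.43 ± 0.17 with AdNkx6.1, and since no label says whether the virus's Nkx6.1 sequence is one it can detect, it does not check the labels.

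Several libraries stood apart before any test. The summed intensity of 14 of 16 listed acinar markers (digestive enzyme cells) was 89358, 63909 and 70359 on Adβgal replicates 4, 5 and 6, against 20227 to 48281 on the other Adβgal arrays, 26223 to 41915 untreated and 22017 to 51383 with AdNkx6.1. The sum of 15 leukocyte markers reached 23901 on Adβgal replicate 6, against 12735 to 15268 untreated. The sum of 8 of 9 endothelial markers was 24248 on Adβgal replicate 5 and 4577 on Adβgal replicate 1, against 8423 to 10328 untreated. With AdNkx6.1 the sum of 7 of 10 beta cell markers was 93589 to 110262, below the untreated range of 111608 to 125473, and 5 of the 7 fell. The sum of 7 of 9 markers of other islet endocrine cells was also lower (68920 to 83168, against 84797 to 93939), and that of 8 of 10 duct markers higher (66811 to 71801, against 49476 to 55044). Of the 8 duct markers 4 rose against untreated, 0 fell and 2 had negative changes, so they did not all move together. The lowest intensity of any probe set was 6.25, so no marker could read 0. Some markers were dim, with a mean log2 of 3.61 for Cd3g untreated and 4.68 for Cftr with AdNkx6.1. Because whole islets were measured, fewer cells of a type and less RNA per cell cannot be told apart, and the part of these shifts in the results below was not tested.

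Most of the ER stress programme moved little in any comparison. AdNkx6.1 against Adβgal gave 1 gene higher (Wfs1) and 2 lower (Eif2ak3 and Sel1l) of 36, which is 8.33% where 25.0% of all genes changed (16.6% higher, 8.48% lower). Adβgal against untreated gave 0 higher and 1 lower (Ero1b), 2.78% where 7.01% of all genes changed (2.84% higher, 4.17% lower). With limma, 2 members were higher and 7 lower in that comparison at an unadjusted p under 0.05, which is 25.0% where 24.9% of all genes (1391 higher and 2152 lower) lay under it. With array weights 2 members, Ddit3 and Ppp1r15a, were called higher, as were 712 of all genes. AdNkx6.1 against untreated gave 1 higher (Wfs1) and 6 lower (Eif2ak3, Xbp1, Dnajb9, Ero1b, Sel1l and Asns), 19.4% where 30.7% of all genes changed (16.9% higher, 13.8% lower).

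Sizes were small. Wfs1 alone passed with a change of at least 1.5-fold, in both AdNkx6.1 comparisons. Of all genes, 10.1% did so between the viruses and 12.7% when AdNkx6.1 was set against untreated islets, while the control virus gave 2.57%. The median change of the 36 genes was -0.04 for AdNkx6.1 against Adβgal (all genes 0.02), -0.09 for Adβgal against untreated (all genes -0.04), and again -0.09 for AdNkx6.1 against untreated (all genes -0.01). In the last comparison 28 of 36 changes were negative (77.8%, against 51.5% of all genes). Every AdNkx6.1 array lay below every untreated array for 11 genes (30.6%, against 14.7% of all genes), and above for Wfs1 (2.78%, against 17.4%). The 11 were the 6 that fell and Atf4, Atf5, Pdia4, Pdia6 and Chac1, which did not pass. Against Adβgal, every AdNkx6.1 array lay above for 1 gene (Wfs1, against 10.4% of all genes) and below for 1 (Eif2ak3, against 3.78%). Every Adβgal array lay above every untreated array for 0 genes (2.05% of all genes) and below for 2, Ero1b and Asns (5.56%, against 4.83%). Both virus comparisons with untreated islets share the untreated arrays, so their values are not independent.

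**Figure D1:**
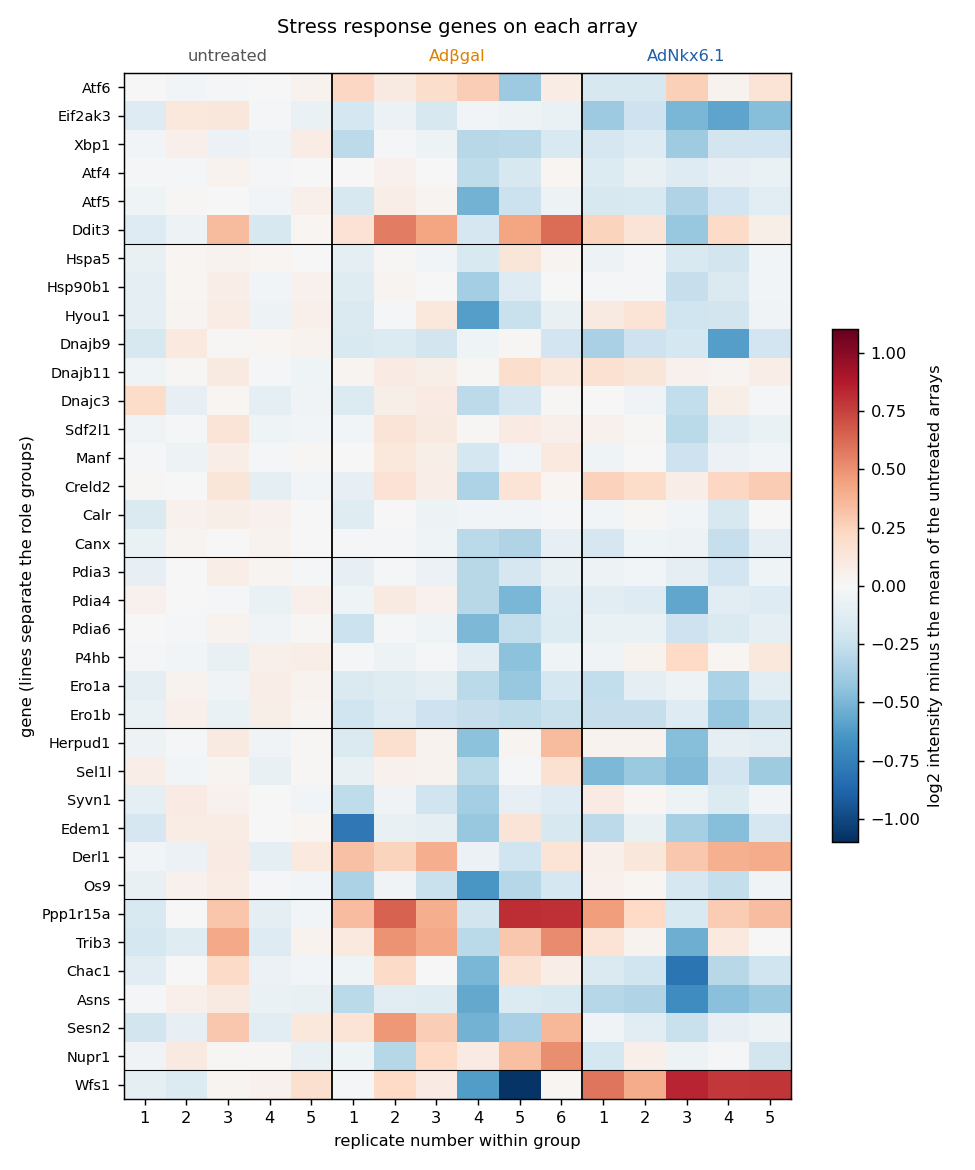
Each cell is the log2 intensity of 1 gene (rows, grouped by role) on 1 array (columns, by group and replicate number) minus the mean of the 5 untreated arrays. The Wfs1 row is red on all 5 AdNkx6.1 arrays, Eif2ak3, Sel1l and Asns are blue there, and Adβgal replicate 4 is blue for much of the list.

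Sensors and their transcription factors. Eif2ak3, the ER kinase that phosphorylates eIF2, read 11.21, 11.47, 11.48, 11.34 and 11.28 on the untreated arrays. It ran from 11.16 to 11.33 with Adβgal (median 11.28) and read 10.96, 11.13, 10.85, 10.78 and 10.89 with AdNkx6.1. Every AdNkx6.1 array lay below every array of both other groups. Eif2ak3 fell 1.26-fold against Adβgal (log2 change -0.34 ± 0.07, limma adjusted p = 0.0031) and 1.35-fold against untreated (-0.44 ± 0.08, adjusted p = 0.00046). Between Adβgal and untreated it differed by -0.10 ± 0.07 (adjusted p = 0.41).

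Xbp1, the transcription factor of the Ern1 arm, read 13.29, 13.37, 13.25, 13.28 and 13.40 untreated. It ran from 13.01 to 13.30 with Adβgal (median 13.09) and read 13.13, 13.18, 12.93, 13.12 and 13.11 with AdNkx6.1. The AdNkx6.1 arrays lay below all untreated arrays, and the Adβgal arrays overlapped both groups. Xbp1 fell 1.17-fold with AdNkx6.1 against untreated (-0.22 ± 0.07, adjusted p = 0.031), a call lost in 5 of 16 cases when 1 array was left out: untreated replicate 2 (adjusted p = 0.073) or 5 (0.079), or AdNkx6.1 replicate 3 (0.079), 4 (0.052) or 5 (0.054). Against Adβgal its change was -0.03 with a 95% interval of -0.18 to 0.12, and Adβgal against untreated gave -0.19 ± 0.07 (adjusted p = 0.11).

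Atf4, the central factor of the integrated stress response, read 13.97, 13.97, 14.02, 13.96 and 13.99 untreated. It ran from 13.70 to 14.03 with Adβgal (median 13.98) and read 13.83, 13.90, 13.84, 13.89 and 13.91 with AdNkx6.1. The untreated and AdNkx6.1 arrays did not overlap, but the change of -0.11 ± 0.07 did not pass in the fit that pools the spread of all groups (adjusted p = 0.25). The low Adβgal values came from replicates 4 (13.70) and 5 (13.81), and the within-group SD was 0.02 untreated, 0.13 with Adβgal and 0.04 with AdNkx6.1. Atf5, a related factor, had changes of -0.05, -0.15 and -0.20 in the 3 comparisons in the order above, and Atf6 had -0.06, 0.08 and 0.02, none of which passed. Without Adβgal replicates 4 to 6 Atf5 passed as lower with AdNkx6.1 against untreated (-0.20, adjusted p = 0.017). It did so too without Adβgal replicate 4, with the 2 groups alone and with array weights. On Adβgal replicate 5 Atf6 read 12.44, against 12.92 to 13.11 on the other Adβgal arrays.

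Ddit3, the CHOP transcription factor, read 12.91, 12.99, 13.40, 12.87 and 13.07 untreated. It ran from 12.86 to 13.66 with Adβgal (median 13.48) and read 13.29, 13.19, 12.63, 13.26 and 13.11 with AdNkx6.1. The groups overlapped throughout. The changes were 0.34 ± 0.15 for Adβgal against untreated (adjusted p = 0.18), -0.29 ± 0.15 for AdNkx6.1 against Adβgal (0.19) and 0.05 ± 0.16 for AdNkx6.1 against untreated (0.85). For Adβgal against untreated Ddit3 passed with array weights (0.44, adjusted p = 0.026), and without Adβgal replicate 4 it had 0.44 and did not pass (0.06). Without Adβgal replicate 4, the lowest of its group, the change between the viruses was -0.39 and passed (adjusted p = 0.042), and without AdNkx6.1 replicate 3, the lowest of its own group, it was -0.17 (adjusted p = 0.43).

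**Figure D2:**
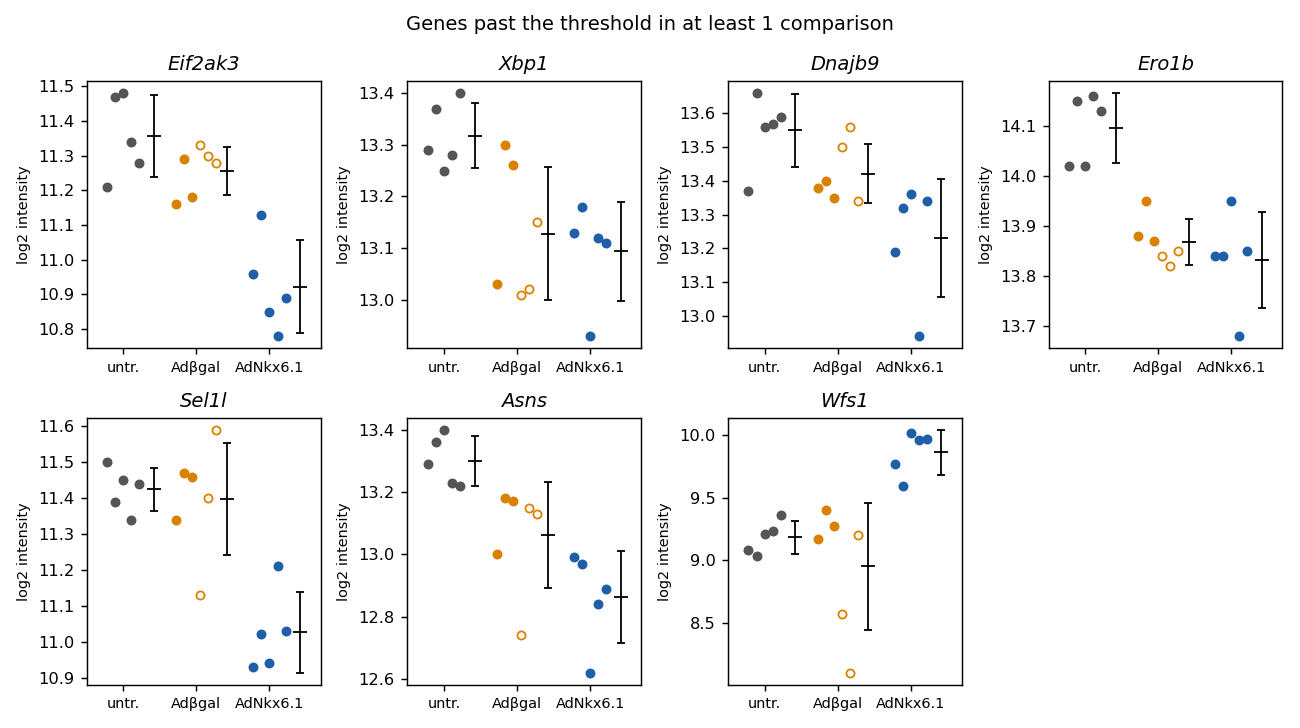
Log2 intensity of the 7 genes past the threshold in at least 1 comparison, with 1 point per array and the group mean ± SD as the bar at its right; the axes start above 0 and differ between panels. Open points are Adβgal replicates 4, 5 and 6, which carried high acinar markers. Wfs1 is highest and Eif2ak3 lowest with AdNkx6.1, whereas Ero1b is lower with both viruses.

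Chaperones and co-chaperones. Of 11 genes, 1 fell (Dnajb9, with AdNkx6.1 against untreated) and 0 rose in any comparison. With limma, at an unadjusted p under 0.05, Creld2 was the 1 higher and 2 were lower for AdNkx6.1 against Adβgal, 0 moved for Adβgal against untreated, and 1 was higher and 1 lower for AdNkx6.1 against untreated. Of all genes, 36.2%, 24.9% and 40.2% lay under that threshold in these comparisons. Hspa5 (BiP), the master ER chaperone of the Hsp70 family and the usual readout of the unfolded protein response, read 14.02, 14.12, 14.14, 14.12 and 14.10 untreated. It ran from 13.93 to 14.23 with Adβgal (median 14.09) and read 14.04, 14.08, 13.93, 13.90 and 14.07 with AdNkx6.1. The 3 groups overlapped. Its change was -0.07 between the viruses with a 95% interval of -0.21 to 0.06, -0.02 for Adβgal against untreated (-0.16 to 0.11) and -0.10 for AdNkx6.1 against untreated (-0.24 to 0.05).

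Dnajb9, an Hsp40 co-chaperone of Hspa5, read 13.37, 13.66, 13.56, 13.57 and 13.59 untreated. It ran from 13.34 to 13.56 with Adβgal (median 13.39) and read 13.19, 13.32, 13.36, 12.94 and 13.34 with AdNkx6.1. The highest AdNkx6.1 array lay just under the lowest untreated one. It fell against untreated (-0.32 ± 0.09, adjusted p = 0.01), and differed by -0.19 ± 0.08 from Adβgal (adjusted p = 0.1).

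The other chaperone genes kept within narrow bounds. Across all 11, the 95% intervals ran from -0.37 to 0.39 for AdNkx6.1 against Adβgal, from -0.40 to 0.21 for Adβgal against untreated and from -0.50 to 0.40 for AdNkx6.1 against untreated. Hsp90b1, the ER member of the Hsp90 family, had changes of 0.01, -0.10 and -0.09 in that order. The lectin chaperones calreticulin (Calr) and calnexin (Canx), which hold glycoproteins until folded, had 0.00, -0.05 and -0.04, and 0.01, -0.14 and -0.13. Creld2, a secreted ER stress protein, had the highest change of the group, 0.21 ± 0.09 against both Adβgal (adjusted p = 0.085) and untreated (0.094), and read 12.56 to 12.77 with AdNkx6.1 against 12.38 to 12.62 untreated. It passed without Adβgal replicates 4 to 6 for AdNkx6.1 against untreated (adjusted p = 0.022). Hyou1, the exchange factor of Hspa5, had 0.13, -0.17 and -0.04 on the probe set used and 0.71, -0.47 and 0.25 on a dimmer one.

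**Figure D3:**
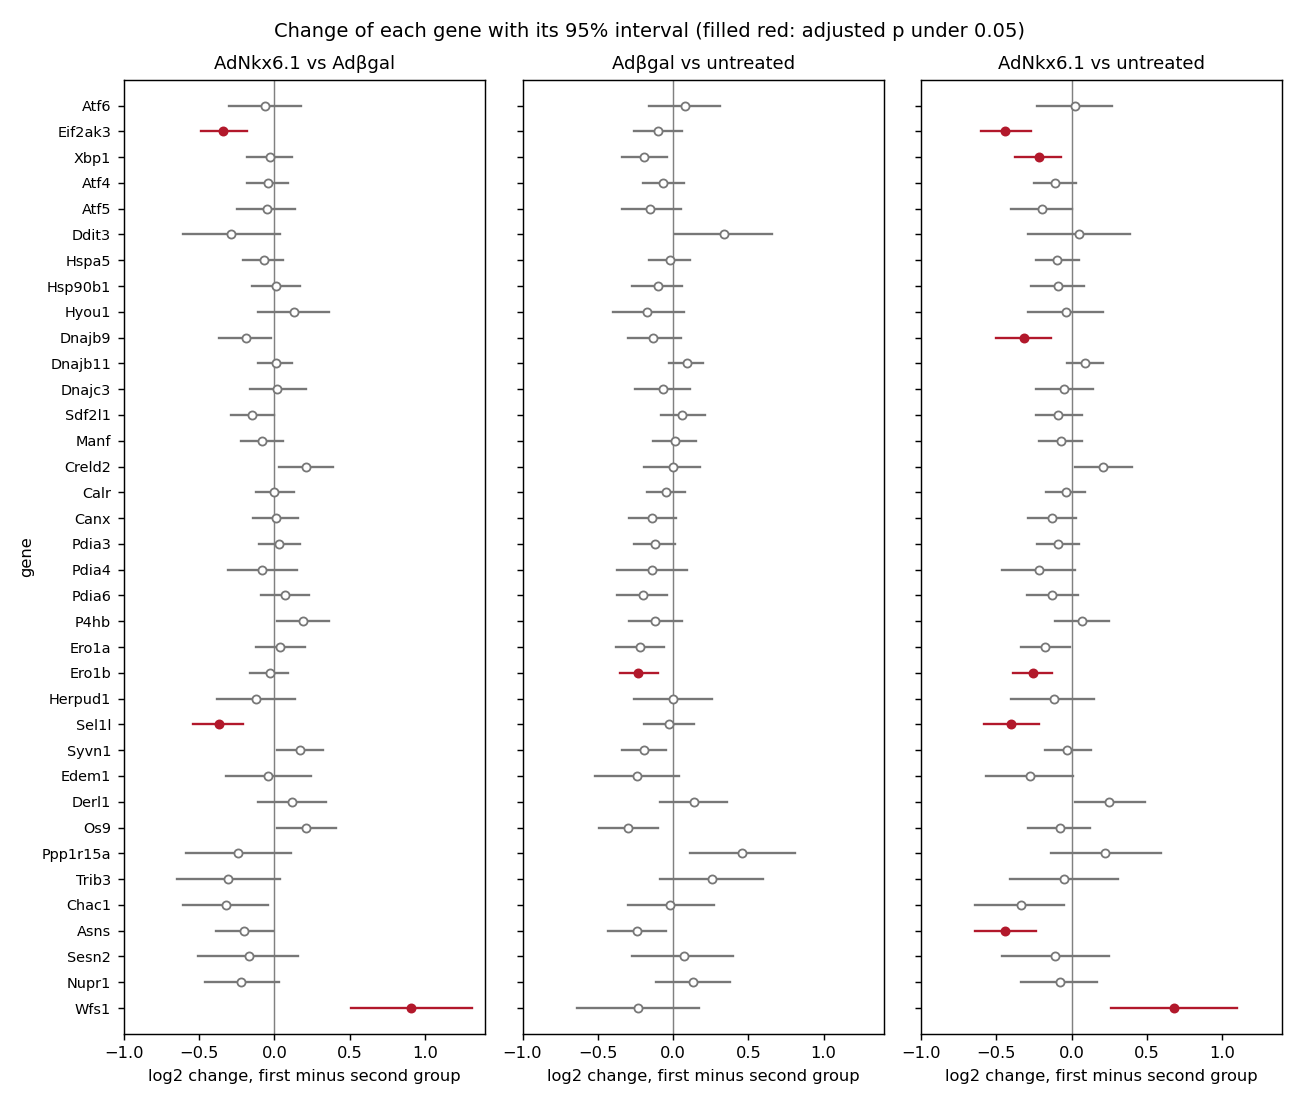
Log2 change of each of the 36 genes (horizontal axis, first minus second group) with its 95% interval from limma, in the 3 comparisons. Filled red points have an adjusted p under 0.05: 3, 1 and 7 genes from left to right; only Wfs1 lies to the right of 0 among them.

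Disulfide enzymes. All 6 enzymes that form or shuffle disulfide bonds in the ER had negative changes for Adβgal against untreated (-0.23 to -0.12, median -0.17). Of all genes, 57.6% had negative changes there. Ero1b passed. Without Adβgal replicates 4 to 6 the median of the 6 enzymes was -0.08, Pdia4 had 0.04, and 0 of the 6 passed. Ero1b, the ER oxidase that is prominent in beta cells, read 14.02, 14.15, 14.02, 14.16 and 14.13 untreated. It ran from 13.82 to 13.95 with Adβgal (median 13.86) and read 13.84, 13.84, 13.95, 13.68 and 13.85 with AdNkx6.1. Every array that received a virus lay below every untreated array.

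Ero1b fell 1.17-fold with Adβgal (-0.23 ± 0.06, adjusted p = 0.029) and 1.2-fold with AdNkx6.1 (-0.26 ± 0.06, adjusted p = 0.0039). The viruses differed by -0.03 with a 95% interval of -0.16 to 0.09. Its call with Adβgal was lost without untreated replicate 2 (adjusted p = 0.081), 4 (0.083) or 5 (0.078) or Adβgal replicate 6 (0.058), and without Adβgal replicates 4 to 6 together (-0.20, adjusted p = 0.12). It was also lost with the mean of both probe sets (-0.32, adjusted p = 0.065), and held in 4 of 9 settings other than leaving out 1 array. A second, dimmer probe set of Ero1b moved by -0.41 with Adβgal and by -0.88 with AdNkx6.1 against untreated, and by -0.47 between the viruses. With the mean of both probe sets the change between the viruses was -0.25 and did not pass (adjusted p = 0.079).

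Its paralog Ero1a, the more widely expressed oxidase, had -0.22 ± 0.07 with Adβgal (adjusted p = 0.08) and -0.18 ± 0.08 with AdNkx6.1 (0.095) against untreated, neither of which passed. Untreated arrays read 12.59 to 12.77 for Ero1a, Adβgal arrays 12.28 to 12.59 and AdNkx6.1 arrays 12.35 to 12.64. The protein disulfide isomerases Pdia3, Pdia4, Pdia6 and P4hb passed in no comparison. P4hb, the classic isomerase, had 0.19 ± 0.08 between the viruses (adjusted p = 0.1), and read 13.28 on Adβgal replicate 5 against 13.61 to 13.72 on the other Adβgal arrays. Pdia4 read 12.25 on AdNkx6.1 replicate 3 against 12.68 to 12.71 on the others of its group.

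ER-associated degradation. Of 6 measured genes of this route, which pulls misfolded proteins out of the ER for destruction, Sel1l fell with AdNkx6.1 and 0 rose. Sel1l, the adaptor of the ubiquitin ligase Syvn1 (Hrd1), read 11.50, 11.39, 11.45, 11.34 and 11.44 untreated. It ran from 11.13 to 11.59 with Adβgal (median 11.43) and read 10.93, 11.02, 10.94, 11.21 and 11.03 with AdNkx6.1. All AdNkx6.1 arrays lay below the untreated arrays, while Adβgal replicate 4 (11.13) lay within the AdNkx6.1 range. Sel1l fell 1.3-fold against Adβgal (-0.37 ± 0.08, adjusted p = 0.0022) and 1.32-fold against untreated (-0.40 ± 0.08, adjusted p = 0.0016), and the control virus differed from untreated by -0.03 ± 0.08 (adjusted p = 0.87).

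The other degradation genes passed in no comparison. Syvn1, the ligase itself, had changes of 0.17 ± 0.07 between the viruses (adjusted p = 0.093), -0.19 ± 0.07 between the control virus and untreated islets (0.098), and -0.03 with AdNkx6.1 against untreated, where the 95% interval was -0.18 to 0.13. Herpud1, a membrane scaffold of the ligase complex and a strong stress target, had -0.12 ± 0.12 between the viruses and -0.12 ± 0.13 for AdNkx6.1 against untreated, and for Adβgal against untreated its 95% interval was -0.26 to 0.26. Untreated arrays read 13.31 to 13.47 for it, Adβgal arrays 12.92 to 13.72 and AdNkx6.1 arrays 12.90 to 13.41, so both virus groups spanned a wider range than the untreated arrays. Os9, a lectin that delivers glycoproteins to the ligase, had -0.30 ± 0.09 with Adβgal against untreated (adjusted p = 0.064) and 0.21 ± 0.09 between the viruses (0.11). With the mean of both its probe sets Os9 passed in these 2 comparisons. For Derl1, a channel protein, the 3 probe sets disagreed in direction for AdNkx6.1 against untreated (0.25 on the one used, -0.42 and -0.20 on the others).

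Targets of Atf4 and Ddit3. Asns, asparagine synthetase and a direct Atf4 target, read 13.29, 13.36, 13.40, 13.23 and 13.22 untreated. It ran from 12.74 to 13.18 with Adβgal (median 13.14) and read 12.99, 12.97, 12.62, 12.84 and 12.89 with AdNkx6.1. All arrays of both viruses lay below the untreated arrays. It fell 1.36-fold with AdNkx6.1 against untreated (-0.44 ± 0.09, adjusted p = 0.0018), while its changes of -0.24 ± 0.09 with Adβgal (adjusted p = 0.1) and -0.20 ± 0.09 between the viruses (0.11) did not pass.

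The other 5 targets passed in no comparison. Ppp1r15a (GADD34), which directs the removal of phosphate from eIF2, had the highest change with the control virus, 0.46 ± 0.17 against untreated (adjusted p = 0.094), where untreated arrays read 10.43 to 10.90, Adβgal arrays 10.39 to 11.41 and AdNkx6.1 arrays 10.43 to 11.05. In that comparison Ppp1r15a passed as higher without Adβgal replicate 4 and with array weights. The higher calls over all genes, 404 with every array, were 422 and 712 there. Trib3, a pseudokinase that restrains Atf4 signalling, had 0.26 ± 0.16 with Adβgal (adjusted p = 0.34) and -0.31 ± 0.16 between the viruses (0.19), and its other probe sets gave -0.40 and -0.40 for the latter. Chac1, which degrades glutathione, had -0.32 ± 0.13 between the viruses (adjusted p = 0.089) and -0.34 ± 0.14 with AdNkx6.1 against untreated (0.076). Without Adβgal replicates 4 to 6 the latter passed (adjusted p = 0.03). Sesn2, a regulator of mTORC1, and Nupr1, a stress-induced chromatin protein, had -0.17 and -0.22 between the viruses. A second probe set of Sesn2 was far dimmer, with a mean log2 of 6.11 against 11.48 on the one used. It moved by -0.90 between the viruses and by 0.89 with Adβgal against untreated. With the mean of both, which includes this dim probe set, Sesn2 passed as lower in the former and higher in the latter. Without Adβgal replicates 4 to 6 the change between the viruses was -0.41 for Sesn2 (adjusted p = 0.013) and -0.04 for Nupr1 (0.82). All 6 targets thus had negative changes between the viruses (median -0.23, against 0.02 for all genes), as had 47.2% of all genes. For Adβgal against untreated 2 of 6 were negative (57.6% of all genes) and 4 positive, with a median of 0.10. For AdNkx6.1 against untreated 5 of 6 were negative (51.5% of all genes), with a median of -0.10. The first 2 of these comparisons share the Adβgal arrays with opposite sign, so their values are not independent.

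Adβgal replicate 4 was the lowest array of its group for 5 of the 6 targets and for 22 of the 36 genes (61.1%, against 30.8% of all genes). Without it, 7 genes were lower with AdNkx6.1 than with Adβgal, against 2: Ddit3, Ppp1r15a, Trib3, Chac1 and Asns joined Eif2ak3 and Sel1l. Over all genes the lower calls went from 1206 to 1357. The same array had the highest acinar marker sum (89358), and the part of that in its low values was not tested. With Adβgal replicates 4, 5 and 6 all left out, 5 genes were lower, those that joined were Chac1, Asns and Sesn2, and the lower calls over all genes came to 1474. Array weights, with every array kept, also gave 7 members lower, with 1882 lower over all genes.

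Of the 5 role groups with several genes, the targets had the widest scatter in each condition. Their median SD among arrays of a group was 0.16 untreated, 0.30 with Adβgal and 0.19 with AdNkx6.1, against 0.08, 0.11 and 0.09 for the chaperones and 0.12, 0.23 and 0.15 for all genes. Untreated replicate 3 was the highest untreated array for 5 of 6 targets, and AdNkx6.1 replicate 3 was the lowest of its group for 5 of 6. That last array was also the lowest of its group for 41.9% of all genes, had the highest acinar sum of its group (51383), and read 12.00 for Trib3 and 11.33 for Chac1 where the other AdNkx6.1 arrays read 12.54 to 12.69 and 11.83 to 11.98.

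**Figure D4:**
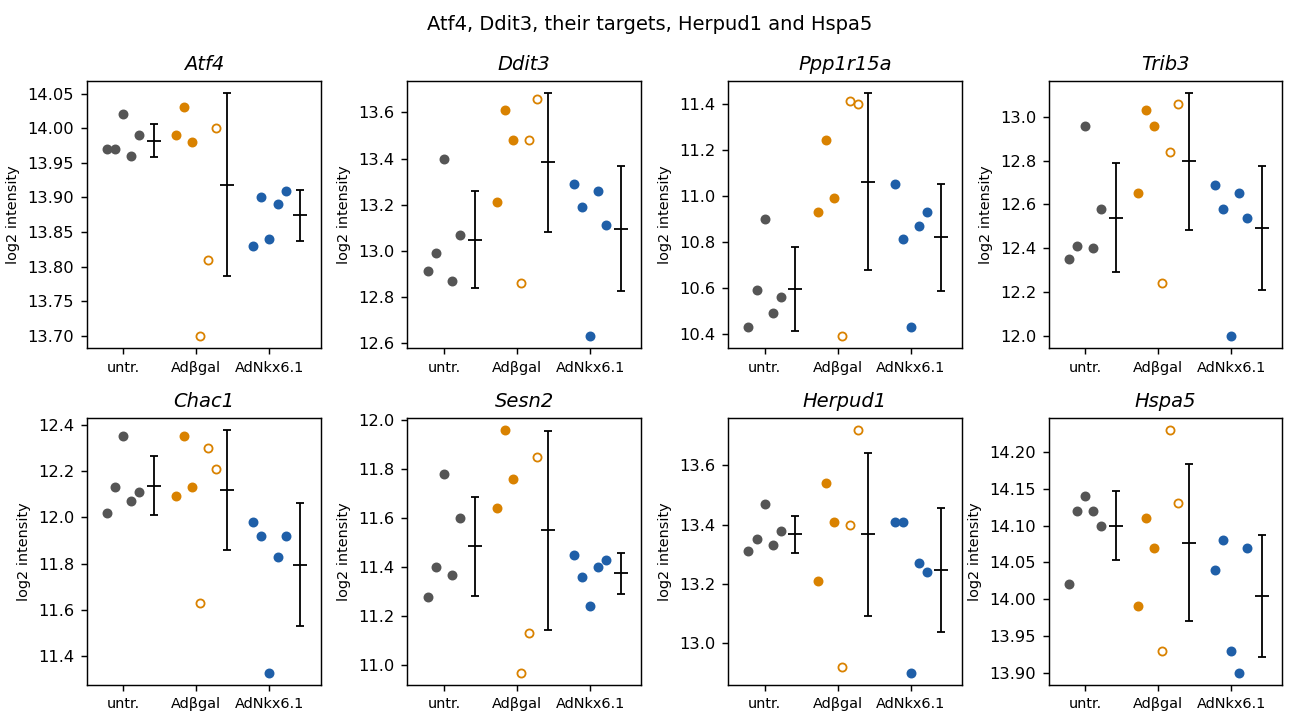
Log2 intensity of Atf4, Ddit3, 4 targets, Herpud1 and Hspa5, with 1 point per array and the group mean ± SD as the bar at its right; open points are Adβgal replicates 4, 5 and 6, and the axes start above 0 and differ between panels. Adβgal replicate 4, the first open point, is the lowest of its group in all 8 panels, and AdNkx6.1 replicate 3 is low in Ddit3, Trib3 and Chac1.

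Wfs1. Wolframin is an ER membrane glycoprotein that supports calcium balance and insulin folding in beta cells, and its loss causes a syndrome with diabetes. It read 9.08, 9.03, 9.21, 9.23 and 9.36 untreated and 9.77, 9.59, 10.02, 9.96 and 9.97 with AdNkx6.1. With Adβgal it read 9.17, 9.40, 9.27, 8.57, 8.10 and 9.20 on replicates 1 to 6. Every AdNkx6.1 array lay above every array of both other groups.

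Wfs1 rose 1.88-fold against Adβgal (log2 change 0.91 ± 0.19, adjusted p = 0.0021) and 1.6-fold against untreated (0.68 ± 0.20, adjusted p = 0.017). Adβgal replicates 4 and 5 were its 2 lowest arrays, replicate 5 being the one with the high endothelial sum, and without replicates 4, 5 and 6 the change between the viruses was 0.58 ± 0.11 (adjusted p = 0.0012). The control virus differed from untreated by -0.23 ± 0.19 (adjusted p = 0.47), or by 0.10 ± 0.11 without those 3 arrays. The beta cell marker sum was lower with AdNkx6.1 than in untreated islets (93589 to 110262, against 111608 to 125473), and its part in this result was not tested. The Wfs1 call against untreated was lost with quantile normalization again (0.58, adjusted p = 0.067).

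Other genes of these pathways. The wider lists, 157 genes of which 150 were measured, are given here by count. For AdNkx6.1 against Adβgal 18 were higher and 6 lower, for Adβgal against untreated 4 and 2, and for AdNkx6.1 against untreated 20 and 18. The shares changed were 16%, 4% and 25.3%, against 25.0%, 7.01% and 30.7% of all genes.

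Of 12 genes of eIF2 control, 3 rose between the viruses and 0 fell (25%, against 25.0% of all genes). With AdNkx6.1 against untreated 4 rose and 1 fell, Nck1 (41.7%, against 30.7% of all genes). Eif2ak2 (PKR), the double-stranded RNA kinase that is induced by interferon, rose 1.45-fold between the viruses (adjusted p = 0.014), with overlapping groups, and 2.01-fold against untreated (1.01 ± 0.16, adjusted p = 0.00013). The haem-regulated kinase Eif2ak1 rose 1.22-fold between the viruses (adjusted p = 0.01) and Eif2b1, a subunit of the eIF2 exchange factor, 1.44-fold (0.00058). So 2 eIF2 kinases were higher with AdNkx6.1 than with Adβgal while Eif2ak3 was lower.

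Of 34 measured further targets of the integrated stress response, 4 rose and 3 fell between the viruses, 2 rose and 0 fell with Adβgal against untreated, and 4 rose and 6 fell with AdNkx6.1 against untreated. That is 20.6%, 5.88% and 29.4%, against 25.0%, 7.01% and 30.7% of all genes. Slc7a11, the cystine transporter subunit, rose 1.4-fold with Adβgal (adjusted p = 0.0099) and was 1.67-fold lower with AdNkx6.1 than with Adβgal (-0.74 ± 0.10, adjusted p = 4.5e-05). The stress factor Atf3 rose with both viruses against untreated, 1.36-fold (adjusted p = 0.011) and 1.76-fold (1.4e-05). Ddit4, an inhibitor of mTORC1, rose 1.54-fold with AdNkx6.1 against untreated, Bbc3 (PUMA), a death-promoting protein that p53 also controls, 1.81-fold, and the hormone gene Fgf21 1.79-fold (adjusted p of 0.00017, 0.00019 and 0.00032). Members of this list therefore moved both ways in the same arrays. Without Adβgal replicates 4 to 6 the counts were 4 higher and 6 lower between the viruses, and 4 and 13 for AdNkx6.1 against untreated. Over all genes the lower calls also rose there, from 1206 to 1474 and from 1956 to 2913.

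Of 22 other folding and redox genes, 1 passed in each AdNkx6.1 comparison: Sil1, an exchange factor of Hspa5, fell 1.29-fold between the viruses (adjusted p = 0.0015) and 1.24-fold against untreated (0.007). Of 20 other degradation genes, 2 rose and 1 fell between the viruses, and 2 rose and 5 fell with AdNkx6.1 against untreated. That is 15% and 35%, against 25.0% and 30.7% of all genes. The ER ubiquitin-conjugating enzyme Ube2j1 fell 1.45-fold between the viruses (adjusted p = 0.002) whereas the ligase Rnf139 rose 1.35-fold (0.0003). The lectin Erlec1 fell 1.18-fold with Adβgal (adjusted p = 0.041) and 1.29-fold with AdNkx6.1 (0.00094) against untreated. Of 29 genes of the translocon, glycosylation and ER export, 28 had negative changes with Adβgal against untreated (median -0.11, against -0.04 for all genes), but only Srp54a of the signal recognition particle passed (1.27-fold lower, adjusted p = 0.014). Without Adβgal replicates 4 to 6, 0 of the 29 passed in that comparison and the median was -0.07. Kdelr3, a receptor that retrieves ER proteins, rose 1.65-fold between the viruses (0.73 ± 0.13, adjusted p = 0.00052) and 1.86-fold against untreated (0.0001).

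Of 8 ATF6-type factors and their proteases, Creb3 rose 1.34-fold between the viruses (adjusted p = 0.00029) and 1.33-fold against untreated (0.00045), and Mbtps2, the protease that completes the cutting of Atf6, fell 1.21-fold (0.028) and 1.31-fold (0.0037). Of 15 measured cytosolic heat shock genes, the counterpart of this response outside the ER, 5 rose and 0 fell between the viruses, and 6 rose and 0 fell with AdNkx6.1 against untreated. That is 33.3% and 40%, against 25.0% and 30.7% of all genes. With AdNkx6.1 against untreated Hspa1a, the inducible Hsp70, rose 4.92-fold (2.30 ± 0.41, adjusted p = 0.00055), the co-chaperone Bag3 2.06-fold (0.00025) and Stip1 1.41-fold (0.00016). Between the viruses Bag3 rose 1.57-fold (0.0077), with overlapping groups, and Stip1 1.42-fold (0.0001). The highest log2 change of any of the 15, Hspa1a included, was 1.14 between the viruses and 1.15 with Adβgal against untreated. The 2.30 of Hspa1a was thus not reached in either of those comparisons. Hspa1a has a near-identical neighbour, Hspa1b, which the array's probe set may not separate. With Adβgal against untreated Hspb8 (1.99-fold, adjusted p = 0.047) and Cryab (1.68-fold, 0.044) rose, and without Adβgal replicates 4 to 6 0 of the 15 passed there. Of 10 mitochondrial chaperones and proteases, 2 rose and 0 fell in either AdNkx6.1 comparison, with Htra2 higher by 0.32 ± 0.09 on the log2 scale between the viruses (adjusted p = 0.017) and Clpp 1.24-fold higher against untreated (0.014). That is 20% in each, against 25.0% and 30.7% of all genes.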

How the data were processed

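The members and gene lists were chosen with earlier results of these data known. Per the submitters' processing notes the authors ran RMA (background correction, quantile normalization and probe summary). Its version is not given in the sources used here. The deposited intensity of each probe set is linear, from 6.25 to 35765, and the step back from RMA's log scale is not given there either. Log2 of each intensity was taken with no pseudocount. Of 31099 probe sets, 57 controls were dropped, 20826 had 1 gene symbol, 436 several and 9780 none. Each of 14217 genes took its brightest probe set.

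The 3 groups entered 1 fit in limma 3.58.1 (R 4.3.3) with 2-sided tests. On simulated data, with changes placed in genes drawn from all 14217, the fit found 62% of 1.5-fold changes between the viruses. It found 64% between the control virus and untreated islets, and 72% between AdNkx6.1 and untreated islets. Of 1.25-fold changes it found 28%, 24% and 22% in that order. The simulation gave each gene 1 spread for all groups. It also changed a smaller share of genes than the 25.0%, 7.01% and 30.7% that changed in the data. Adjusted p depends on that share, so the shares found need not hold for these arrays. In the data the median SD over all genes was 0.12 untreated, 0.23 with Adβgal and 0.15 with AdNkx6.1. Precision is limited by how many arrays there are. Alternatives were the replicate block, other probe set choices, normalization, an added constant, a filter on dim genes, other spread models and leaving out arrays. Of the 36 genes, 11 had over 1 probe set. All members could be named; of each pathway list, up to 4 genes with the smallest p among those past the threshold in a comparison. Tables used pandas 2.3.3 (Python 3.11.15), figures matplotlib 3.10.9. P-values measure the spread between these arrays.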

Additional observations from a re-analysis of the deposited data

Results flagged for a closer look

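Within each group of 5 or 6 arrays, the gap of the highest or lowest array to its neighbour was set against the group's range (Dixon's 95% critical value) for the 36 genes, which makes 108 checks, and in 12 of them an array stood apart. Chance gives about 1 in 20 groups, and the checks share arrays. On AdNkx6.1 replicate 3 the lowest values were 12.93 for Xbp1 (others 13.11 to 13.18), 12.63 for Ddit3 (13.11 to 13.29), 12.25 for Pdia4 (12.68 to 12.71), 12.00 for Trib3 (12.54 to 12.69) and 11.33 for Chac1 (11.83 to 11.98). Adβgal replicate 5 was low for Atf6 (12.44, others 12.92 to 13.11) and P4hb (13.28, others 13.61 to 13.72), and Adβgal replicate 4 for Chac1 (11.63, others 12.09 to 12.35). Calr had a low array in each group: 13.70 on untreated replicate 1 (others 13.86 to 13.92), 13.72 on Adβgal replicate 1 (13.80 to 13.85) and 13.68 on AdNkx6.1 replicate 4 (13.83 to 13.87). Sdf2l1 was high on untreated replicate 3 (12.81, others 12.62 to 12.65).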

How the results depend on the processing

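Other settings changed the counts of members more than the values of the called genes. For AdNkx6.1 against Adβgal, Wfs1, Eif2ak3 and Sel1l passed in all 25 other settings. The members higher numbered 1, and 2 with the mean of all probe sets or with array weights (1 to 2 leaving out 1 array). The higher calls over all genes went from 2354 to 2338 and 3058 in those settings. The members lower numbered 2, but 3 with the mean of all probe sets, 4 with quantile normalization again, 7 with array weights and 5 without Adβgal replicates 4 to 6 together, a choice made after seeing the data (2 to 7 leaving out 1 array). Over all genes the lower calls went from 1206 to 1207, 1800, 1882 and 1474 in that order. For Adβgal against untreated the members higher numbered 0, but 1 with the mean of all probe sets and 2 with array weights (0 to 1 leaving out 1 array). The members lower numbered 1, but 0 with the replicate block, with quantile normalization again, with the 2 groups alone and without Adβgal replicates 4 to 6, and 2 with trend and robust settings (0 to 2 leaving out 1 array). Over all genes the lower calls went from 593 to 241, 658, 309, 307 and 688 in that order. For AdNkx6.1 against untreated the members higher numbered 1, but 3 with the 2 groups alone, 4 with array weights and 3 without Adβgal replicates 4 to 6 (1 to 2 leaving out 1 array), and the members lower 6, but 13 with array weights, 9 with the 2 groups alone, 9 without Adβgal replicates 4 to 6 and 5 with the replicate block (5 to 8 leaving out 1 array). Lower calls over all genes in that comparison went from 1956 to 3607 with array weights and 2933 with the 2 groups alone. Without Adβgal replicates 4 to 6 they numbered 2913. The higher calls went from 2404 to 3862, 3317 and 3231 in these settings. Without Adβgal replicates 4 to 6, Atf5, Ero1a and Chac1 joined as lower, and Creld2 and Derl1 as higher. The cause of these moves was not tested. No change that passed its test reversed in that comparison.

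Samples of the same replicate number did not deviate together (correlations from -0.39 to 0.25 over genes), so the numbers pair nothing known. With the replicate block the genes changed in all fell from 404 higher and 593 lower to 152 and 241 for Adβgal against untreated, and Ero1b there (adjusted p = 0.12) and Xbp1 for AdNkx6.1 against untreated (0.064) lost their calls. Of the members, 19 had a mean log2 of at least 13 where the highest value of any gene on any array was 14.9, and whether such bright probe sets understate changes was not tested.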
